A study of Homo sapiens with 6 samples.

Results

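KHOS cells, an established human osteosarcoma line, were compared with and without a transfected microRNA vector. The comparison set 2 vector arrays against 1 control array, which makes 3 of the 6 arrays of the study, and the other 3 held the same conditions in U-2OS, a second osteosarcoma line. The KHOS miR-null array held RNA from cells given the empty vector miRSelect pEP-miR-Null, and the KHOS miR-1 array RNA from cells given miRSelect pEP-miR-1, which encodes the muscle microRNA miR-1. Both vectors were delivered with Lipofectamine LTX plus its Plus Reagent and left for 48 hours. The labels name no vector for the KHOS control, and the sources used here do not give whether those cells received the reagents. RNA of 3 flasks was pooled before hybridisation to an Affymetrix U133 Plus 2.0 array, so the flasks cannot be seen one by one. A gene counted as changed only if both vector arrays lay on the same side of the control array, so the comparison asks what both vectors had in common.

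Cells detect foreign or misplaced nucleic acid with cytosolic sensors, which switch on interferon regulatory factors and NF-kB and so the gene for interferon beta. Secreted interferon then signals through JAK kinases and STAT factors to a large set of antiviral genes that carry an interferon-stimulated response element. Separately, the integrated stress response slows translation and raises the transcription factor ATF4, whose targets serve amino acid supply, and dividing cells keep replication and mitosis genes on through E2F and related factors.

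The mature miR-1 sequence is shown because it is the only stated difference between the vectors. RefSeq (GRCh38.p14) places this mature sequence at chr20:62554351-62554372 on the plus strand within MIR1-1 and at chr18:21829015-21829036 on the minus strand within MIR1-2. Both give the same 22 bases. Capitals mark the seed.
hsa-miR-1-3p: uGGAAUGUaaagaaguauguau

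The values were log2 expression values as deposited. KHOS array medians were 5.0 for control, 5.02 for miR-null and 4.98 for miR-1. Hybridisation spike-ins, which are added in equal amount to each sample, were higher than on the control array by 0.37 on miR-null and 0.18 on miR-1. For 28S ribosomal RNA the 5′ probe set was higher by 0.39 and 0.81 and the middle probe set by 0.92 and 1.21. The 3′ minus 5′ signal of actin was 2.68, 2.89 and 2.90 in that order. The part of these array values in the results below was not tested. Of the mesenchymal markers, 12 of 13 passed the level filter, with vimentin (VIM) at 14.30 on the control array. The osteoblast markers SP7, ALPL and IBSP lay below the filter of 5.11, while RUNX2 read 8.98, SPP1 read 5.65 and COL1A1, also a mesenchymal marker, lay above it. Muscle, blood and endothelial lists averaged 4.53, 4.92 and 5.01 on the control array, and the epithelial list 4.94, with 2 of its 9 genes tested and EPCAM at 8.43. On that array 2 of 6 muscle, 3 of 6 blood, 3 of 6 endothelial and 3 of 9 epithelial genes reached the filter. On the miR-null and miR-1 arrays the blood list averaged 4.98 and 4.82, the endothelial list 4.98 and 4.70 and the epithelial list 4.89 and 4.86. In limma 0 genes of the 6 marker lists passed. At an unadjusted p under 0.05 the mesenchymal list had 1 gene higher and 3 lower, the osteoblast list 1 and 1, the endothelial list 0 and 1 and the others 0. Fewer cells of a type and less RNA per cell cannot be told apart in such bulk RNA.

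More genes rose than fell with a vector in KHOS. Of 12958 genes tested, 446 rose (3.44%) and 74 fell (0.571%) at a Benjamini-Hochberg adjusted p below 0.05 in limma. The median rise was 1.13 on the log2 scale and the smallest 0.72, and the median fall was -0.94. At an unadjusted p under 0.05, 12% of genes tested were higher and 6.28% lower, which is the background for the unadjusted counts of the lists below. By size alone, 240 genes (1.85%) were at least 2-fold higher and 15 genes (0.116%) at least 2-fold lower on both vector arrays. Both vector arrays lay above control for 38.6% of genes and below it for 40.5%, and the median gene differed by -0.01. The miR-null and miR-1 differences share 1 control array, so their common direction is no independent support. The fit took its spread from the vector arrays of both lines, with 2 residual degrees of freedom, and assumed that the control array varies like them. That spread also holds any effect of miR-1, and it is between pooled arrays, not between cultures.

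These counts depended on single arrays. With the KHOS miR-null array left out 99 genes rose and 0 fell in limma, and with KHOS miR-1 left out 101 rose and 0 fell. Leaving out the U-2OS miR-null array gave 760 and 238, and leaving out U-2OS miR-1 gave 752 and 230. A further quantile normalization left 118 and 12. Centring on the spike-ins moved the median of all genes to -0.28 and left 161 and 69, which lowered the share of rises among the calls from 85.8% to 70.0%.

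The interferon-stimulated effectors were the group with the most rises. These are the proteins that block virus entry, translation and replication in interferon-treated cells. Of 44 tested members 34 rose and 0 fell, 31 were at least 2-fold higher on both vector arrays, and all 44 lay above control on both arrays. At an unadjusted p under 0.05, 44 were higher and 0 lower. Their median difference from control was 1.96 on miR-null and 1.26 on miR-1, against 0.02 and -0.04 for all genes. Leaving out KHOS miR-null gave 12 rises, leaving out KHOS miR-1 gave 26, and quantile normalization gave 16.

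**Figure D1:**
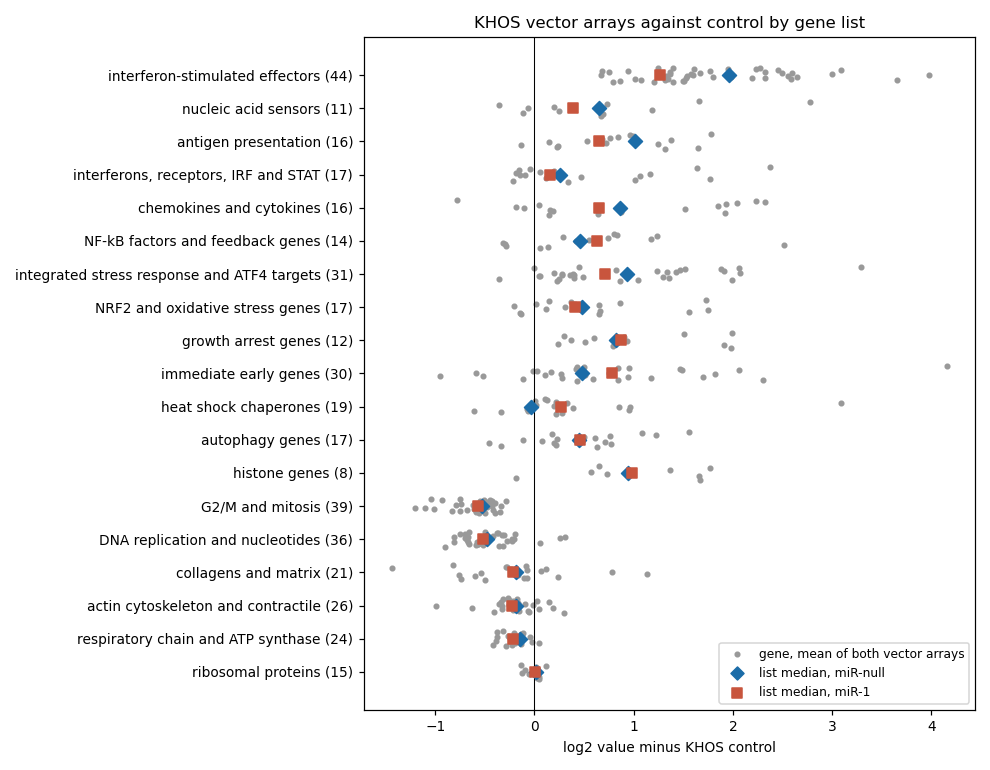
Differences from the KHOS control array, in log2 units, for the tested genes of 19 lists, with the number of genes in brackets. Each grey point is a gene at the mean of both vector arrays, the blue diamond is the list median on the miR-null array and the red square that on the miR-1 array. Interferon-stimulated effectors sit farthest to the right, at medians of 1.96 and 1.26, and the G2/M list farthest to the left, at -0.52 and -0.57.

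RSAD2, the antiviral radical enzyme viperin, read 6.56 on the control array, 10.90 with miR-null and 10.18 with miR-1. Both vector arrays were therefore far above control. It rose by 3.98 ± 0.27 (log2, SE, 2 vector arrays against 1 control array), a 15.8-fold rise (limma adjusted p = 0.000952). TRIM22, a ubiquitin ligase that restricts several viruses, read 6.77, 10.86 and 9.98 on the same arrays and rose 12.5-fold (limma adjusted p = 0.0054). With KHOS miR-null left out TRIM22 did not pass (limma adjusted p = 0.069). IFIT2, which binds viral RNA, read 10.51, 13.63 and 13.56, and OASL, an enhancer of RNA sensing, read 7.95, 11.02 and 10.88. The vector arrays nearly coincided for these genes, whose rises were 3.09 ± 0.16 and 3.0 ± 0.19. The IFIT2 call had the smallest adjusted p of the comparison, 0.00046 in limma. HERC5, the ligase that attaches ISG15 to proteins, read 8.83, 11.73 and 11.23, and the dynamin-like GTPase MX1 read 8.87, 11.80 and 11.12.

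Several members were already high in the control cells. ISG15, a ubiquitin-like modifier, read 12.73 on the control array and rose by 1.37 ± 0.19 to 14.16 and 14.03. IFIT1 and IFIT3, partners of IFIT2, read 11.48 and 10.87 on the control array and rose by 1.61 ± 0.29 and 2.45 ± 0.22. Of 45 measured members, 39 were higher on the KHOS control array than on the U-2OS control array. The same share over all genes was not counted. The 10 tested members that did not pass had differences from 0.67 in the RNA-activated kinase EIF2AK2 to 1.32 in SAMD9. IFITM2 and IFITM3, which block virus entry at endosomes, were among them at 0.68 and 0.75. The other passing members lay between 1.20 (SP110) and 2.58 (GBP1).

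**Figure D2:**
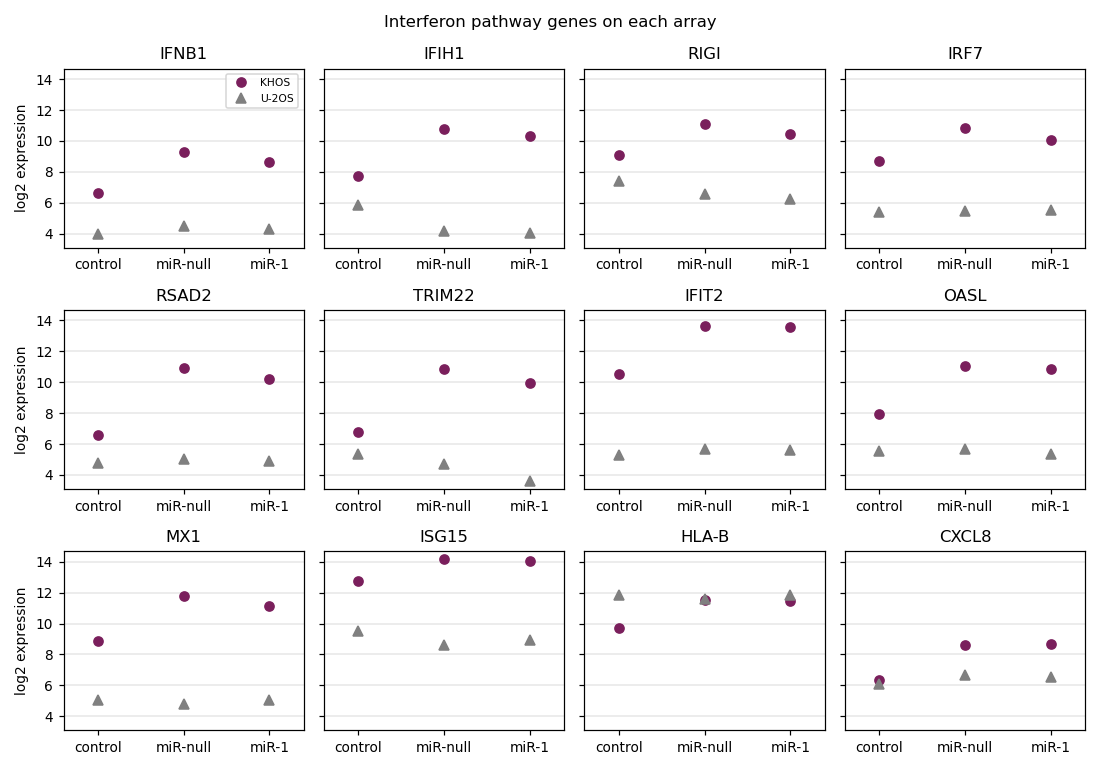
Log2 expression of 12 genes of the interferon pathway on each array, with purple circles for KHOS and grey triangles for U-2OS. In every panel both KHOS vector points lie above the KHOS control point, while U-2OS values of IFIH1 and TRIM22 are lower on the vector arrays than on their control.

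Promoter sequence was examined next. Antiviral genes of this kind are known for the element described above, so its share in the list gives no independent support. The interferon-stimulated response element was searched as GAAA followed after any 2 bases by a further GAAA, on both strands, from 250 bases before to 50 after the start site, in RefSeq promoters (GRCh38.p14), with overlapping matches counted as found. Of 35 tested effectors with a promoter entry 27 held it (77.1%), against 3.7% of 10455 tested genes with an entry. Among the effectors that rose 18 of 26 held it (69.2%). Among all genes that rose the share was 11.2%, and among those that fell 1.7%. A match describes letters only and does not show a bound factor.

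The windows below belong to genes that rose, and capitals mark the element on either strand, with overlapping matches in 1 run. They are RSAD2 (chr2:6877608-6877665, plus strand), GBP1 (chr1:89065302-89065359, minus strand), IFIT3 (chr10:89327817-89327908, plus), IFI27 (chr14:94110604-94110674, plus), ISG15 (chr1:1013360-1013423, plus), IFIH1 (chr2:162318685-162318729, minus) and RTP4 (chr3:187368319-187368384, plus). All lie upstream of the start site, and IFIT3, IFI27, ISG15 and RTP4 hold 2 matches each.
RSAD2: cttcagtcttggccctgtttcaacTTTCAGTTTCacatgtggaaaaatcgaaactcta
GBP1: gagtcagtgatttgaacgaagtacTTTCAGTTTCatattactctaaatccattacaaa
IFIT3: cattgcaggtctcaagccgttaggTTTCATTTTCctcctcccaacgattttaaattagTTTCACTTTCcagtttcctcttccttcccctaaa
IFI27: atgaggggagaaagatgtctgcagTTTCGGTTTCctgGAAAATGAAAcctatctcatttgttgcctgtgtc
ISG15: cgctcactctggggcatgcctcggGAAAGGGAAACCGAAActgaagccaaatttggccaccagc
IFIH1: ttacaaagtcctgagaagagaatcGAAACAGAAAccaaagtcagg
RTP4: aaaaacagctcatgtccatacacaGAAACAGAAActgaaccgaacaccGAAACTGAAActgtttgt

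Upstream of the effectors, 3 of 11 tested nucleic acid sensors rose. IFIH1 (MDA5), a sensor of long double-stranded RNA, read 7.76 on the control array, 10.78 with miR-null and 10.30 with miR-1. It rose by 2.78 ± 0.22, or 6.87-fold (limma adjusted p = 0.00159). RIGI, which senses short RNA ends, rose by 1.66 ± 0.26, and IFI16, a DNA sensor of the nucleus, by 1.18 ± 0.20. The DNA sensor CGAS read 7.20, 7.29 and 7.51, its adaptor STING1 read 5.74, 5.87 and 5.47, and neither passed. MAVS, the adaptor of the RNA sensors, differed by -0.35 ± 0.19 (limma adjusted p = 0.383). With KHOS miR-null left out 1 sensor passed, and with KHOS miR-1 left out 2 did.

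Of 17 tested interferons, receptors and their transcription factors 6 rose. IFNB1, interferon beta, read 6.60 on the control array, 9.30 with miR-null and 8.66 with miR-1, a 5.19-fold rise (limma adjusted p = 0.00277). IFNL1, a lambda interferon, rose by 1.64 ± 0.23 from a low 5.25. IRF7, the factor that amplifies interferon genes, rose by 1.77 ± 0.29, while IRF1 and IRF9, other factors of the pathway, rose by 1.06 ± 0.22 and 1.02 ± 0.18 and the kinase JAK2 by 1.17 ± 0.17. The receptor chains IFNAR1 and IFNAR2 differed by -0.05 and -0.15, and IRF3, which acts without being induced, by 0.11. The list's median was 0.20, or -0.07 when centred on the spike-ins. Leaving out KHOS miR-null gave 1 rise and leaving out KHOS miR-1 gave 3.

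Antigen presentation genes, which display peptides to T cells, rose in 7 of 16 tested members. HLA-B read 9.70 on the control array, 11.53 with miR-null and 11.43 with miR-1, a 3.43-fold rise. ERAP2, a peptide-trimming protease, rose by 1.65 ± 0.21, the peptide transporter TAP1 by 1.38 ± 0.26, and NLRC5, the activator of class I genes, by 1.31 ± 0.25. PSMB9, HLA-E and HLA-C completed the list's rises at 1.24, 0.99 and 0.96. Probe sets of the HLA genes can share signal among related genes. B2M, the common light chain, read 13.30, 14.04 and 13.92 and did not pass. The list's median was 1.02 on miR-null and 0.65 on miR-1, and 1 member passed with KHOS miR-null left out and 4 with KHOS miR-1 left out.

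Chemokines and cytokines rose in 8 of 16 tested members, with 7 others below the level filter. The neutrophil chemokine CXCL8 read 6.34 on the control array, 8.63 with miR-null and 8.69 with miR-1, a 5.0-fold rise (limma adjusted p = 0.00114). CXCL2, of the same family, rose by 2.23 ± 0.21, the T-cell chemokines CXCL11 and CCL5 by 2.04 ± 0.19 and 1.93 ± 0.26, and IL6 by 1.85 ± 0.24. TSLP, IL11 and LIF rose by 1.92, 1.51 and 0.87. IL1B and CXCL1 had -0.10 and -0.78 and did not pass. Among NF-kB factors and feedback genes 4 of 14 rose, the inhibitors TNFAIP3 (2.51 ± 0.36) and NFKBIA (1.18 ± 0.16) and the subunits NFKB2 (0.83) and NFKB1 (0.80). TNFAIP3 read 6.09, 8.06 and 9.15, which put the miR-1 array above the miR-null array. Leaving out either KHOS vector array gave 3 cytokines and 1 NF-kB gene.

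The integrated stress response was the second large group. Of 31 tested genes 15 rose and 0 fell, 14 of them at least 2-fold on both arrays, with medians of 0.94 on miR-null and 0.72 on miR-1. ATF3, a stress-induced repressor, read 7.54 on the control array, 10.44 with miR-null and 11.22 with miR-1. It rose by 3.29 ± 0.30, or 9.76-fold (limma adjusted p = 0.00206). DDIT3 (CHOP), a factor of prolonged stress, read 9.15, 11.25 and 11.17, and PPP1R15A (GADD34), which restores translation, read 8.57, 10.36 and 10.53. Both vector arrays stood well above control for each. The median was 0.55 when centred on the spike-ins, and 5 genes passed with KHOS miR-null left out and 8 with KHOS miR-1 left out.

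The other rises of this group covered a few roles. Regulators were CREBRF (1.99 ± 0.21), the leucine sensor SESN2 (1.90 ± 0.20), the mTORC1 inhibitor DDIT4 (1.51 ± 0.18), the pseudokinase TRIB3 (1.46), and the C/EBP factors CEBPB (1.43) and CEBPG (1.34). Amino acid supply was represented by CTH, which makes cysteine (2.07 ± 0.18), the cystine transporter subunits SLC3A2 (1.35) and SLC7A11 (1.30), and asparagine synthetase ASNS, which read 9.65, 11.06 and 10.70. STC2 and VLDLR rose by 1.05 and 0.86. ATF4 itself differed by 0.45 and did not pass. Among cytosolic aminoacyl-tRNA synthetases, which load tRNAs, WARS1 (1.30 ± 0.22) and SARS1 (0.92 ± 0.17) rose of 17, with a list median of 0.16 that was -0.11 when centred on the spike-ins. Leaving out KHOS miR-null gave 0 synthetases and leaving out KHOS miR-1 gave 1. Of these synthetases WARS1 is also known as an interferon-induced gene.

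The C/EBP-ATF response element was searched as TGATGNAA in the same promoter windows on both strands. It was in 6 of 26 stress response genes with an entry (23.1%), against 2.9% of tested genes. The list holds ATF4 targets, so this share gives no independent support. Among all genes that rose the share was 4.7%, and among those that fell 3.4%. The windows shown are of genes that rose, CEBPG (chr19:33374047-33374102, plus) and ASNS (chr7:97872445-97872500, minus), with the element in capitals.
CEBPG: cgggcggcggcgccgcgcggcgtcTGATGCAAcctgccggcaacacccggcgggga
ASNS: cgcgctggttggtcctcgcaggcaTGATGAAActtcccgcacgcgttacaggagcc

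Of all genes tested 3.44% rose, which is the background for the counts of rises in this paragraph. In the unfolded protein response of the endoplasmic reticulum 2 of 21 genes rose, XBP1, a factor that is spliced under stress (1.06 ± 0.16), and the chaperone DNAJB9 (0.92 ± 0.18). Only 1 of 2 XBP1 probe sets lay above control on both arrays. The list's median of 0.16 was -0.12 when centred on the spike-ins. With that centring, or with the median of a gene's probe sets, 0 of its genes rose. The main chaperone HSPA5 read 12.98, 13.45 and 13.16 and did not pass. Of 17 oxidative stress genes 3 rose, the small Maf factor MAFF (1.75 ± 0.29), haem oxygenase HMOX1 (1.73 ± 0.22) and the cargo receptor SQSTM1 (1.56 ± 0.17), while NQO1 had 0.15. SQSTM1 was joined among 17 autophagy genes by MAP1LC3B (1.22) and GABARAPL1 (1.08), which coat autophagosomes. Among 8 metallothioneins and zinc response genes the zinc exporter SLC30A1 rose by 1.99 ± 0.19 and MT1M by 1.25 ± 0.20, with a list median of 0.18 that was -0.10 when centred on the spike-ins. Of 16 p53 targets PMAIP1 (NOXA) read 11.65, 13.21 and 13.38, and it and TP53INP1 rose by 1.64 and 1.32, while MDM2 had 0.44, and the list's median of 0.18 was -0.09 when centred on the spike-ins. None of 18 BCL2 family and death receptor genes passed in limma, with 2 higher and 2 lower at an unadjusted p under 0.05. With KHOS miR-null left out 1 unfolded protein response gene, 1 oxidative stress gene and 0 autophagy genes passed, and with KHOS miR-1 left out 0 of each. The zinc and p53 lists had 1 rise each under either omission.

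Immediate early genes, which respond within minutes to growth factors or stress, mostly lay above control. Of 30 tested, 24 lay above it on both arrays and 3 below, and 9 rose and 1 fell. FOS, an AP-1 subunit, read 6.38 on the control array, 9.58 with miR-null and 11.51 with miR-1. It had the largest rise of the comparison, 4.16 ± 0.60 or 17.9-fold (limma adjusted p = 0.00974), and the vector arrays differed by 1.93. After quantile normalization FOS did not pass (limma adjusted p = 0.0719). The small GTPase GEM rose by 2.31 ± 0.23, the zinc finger factors EGR1 and KLF4 by 2.06 ± 0.28 and 1.69 ± 0.18, and the MAP kinase phosphatase DUSP1 by 1.82 ± 0.25. JUNB, KLF10, KLF6 and FOSL2 rose by 1.47, 1.17, 0.94 and 0.84. KLF2, a quiescence factor, read 10.06, 9.13 and 9.10 and fell by 0.95 ± 0.16. The list's median was 0.55, or 0.28 when centred on the spike-ins. Leaving out KHOS miR-null gave 6 rises and 0 falls, and leaving out KHOS miR-1 gave 4 and 0. DUSP1 probe sets disagreed, since 2 of 3 lay on the same side on both arrays.

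Growth arrest genes rose in 7 of 12 tested members. GADD45A, a stress-induced inhibitor of the G2 to M transition, read 10.78 on the control array, 12.52 with miR-null and 13.01 with miR-1. TXNIP, an inhibitor of thioredoxin and glucose uptake, rose by 1.98 ± 0.17, and MXD1, which competes with MYC for its partner MAX, by 1.91 ± 0.18. GADD45B, the CDK inhibitor CDKN1A (p21), BTG1 and MXI1 rose by 1.51, 0.93, 0.90 and 0.79. MYC itself, listed with the G1 regulators, read 8.52, 10.59 and 11.07 and rose 4.95-fold (limma adjusted p = 0.00211), and the repressor E2F7 rose by 1.03 ± 0.18. SKP2, the F-box protein that removes CDK inhibitors, read 10.83, 9.78 and 9.72 and fell by 1.08 ± 0.16. Leaving out either KHOS vector array gave 1 rise and 0 falls among the 20 G1 regulators. With KHOS miR-null left out 4 growth arrest genes passed, and with KHOS miR-1 left out 3 did.

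Genes of mitosis and replication were lower on both vector arrays, mostly by amounts under 2-fold. All 39 tested G2/M genes lay below control on both arrays and 5 fell, while 33 were lower at an unadjusted p under 0.05, against 6.28% of all genes. Of 36 DNA replication genes 33 lay below control on both arrays and 1 fell, with 22 lower at an unadjusted p under 0.05. The medians of the G2/M list were -0.52 on miR-null and -0.57 on miR-1, and those of the replication list -0.48 and -0.52. Centred on the spike-ins, the medians over both arrays were -0.82 and -0.78 beside -0.28 for all genes. With either KHOS vector array left out, 0 genes of both lists passed, as 0 genes of the whole table fell.

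SPC25 and SPC24, subunits of the kinetochore complex that holds chromosomes to the spindle, fell by 1.20 ± 0.21 and 1.10 ± 0.18. SPC25 read 9.65 on the control array, 8.49 with miR-null and 8.40 with miR-1. Cyclin A2 (CCNA2) read 10.54, 9.56 and 9.44 and fell 1.04 ± 0.21 on the log2 scale (limma adjusted p = 0.0319). UBE2C, which feeds the anaphase-promoting complex, and the kinesin KIF20A fell by 0.83 and 0.79. The mitotic kinase CDK1 read 12.25, 11.41 and 11.24 and just missed the threshold (limma adjusted p = 0.0502). TOP2A, the topoisomerase of dividing cells, had -1.02 ± 0.25 and did not pass. In replication POLE2, a polymerase subunit, read 10.15, 9.27 and 9.41 and fell by 0.81 ± 0.17, while the helicase HELLS had -0.90 and the clamp PCNA -0.70. ORC6, GINS3 and RPA2 were the replication genes above control on both arrays.

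**Figure D3:**
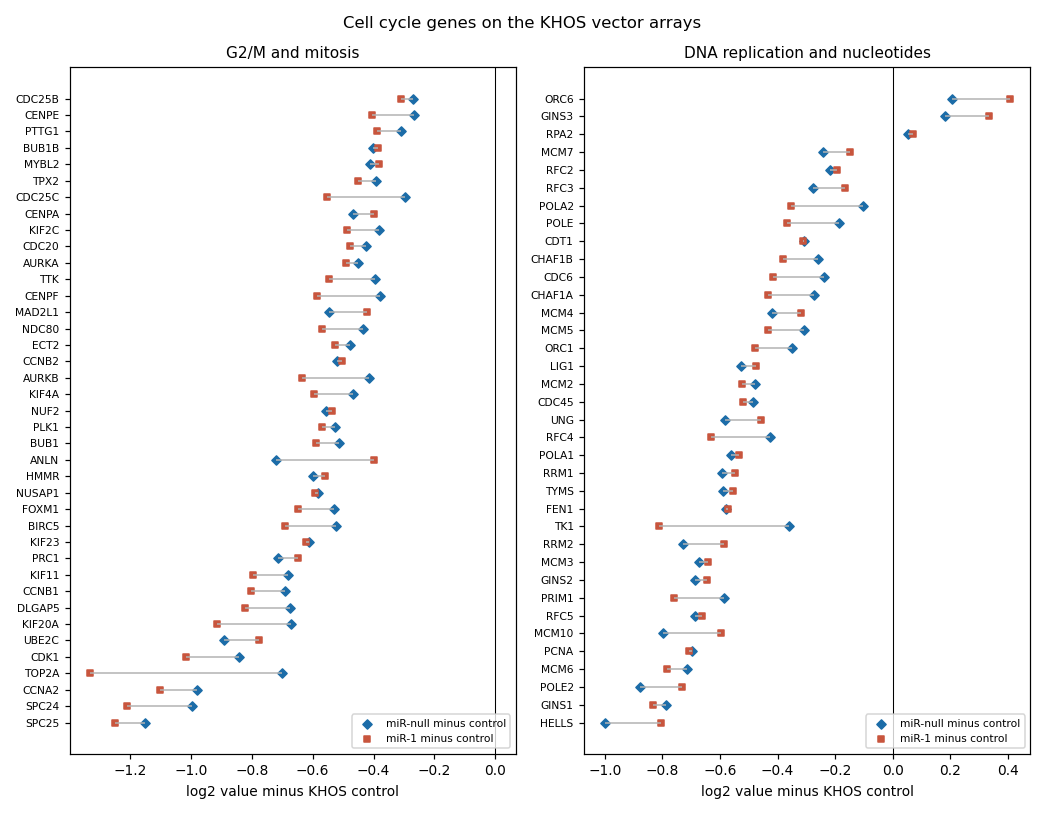
Differences from the KHOS control array, in log2 units, for each tested G2/M and DNA replication gene, with blue diamonds for miR-null and red squares for miR-1. All 39 G2/M genes lie left of 0 on both arrays, as do 33 of 36 replication genes.

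The element of G2/M promoters known as the cell cycle genes homology region was searched as TTTGAA on both strands. It was in 22 of 33 G2/M genes with a promoter entry (66.7%), against 13.9% of tested genes, but in only 1 of the 4 entries among the 5 that fell. The E2F motif, searched as TTTNNCGC on both strands, was in 21 of 33 replication genes (63.6%), against 12.4% of tested genes. Genes of these lists are known for these motifs, so the shares give no independent support. Among all genes that rose the first motif was in 19.6% and the E2F motif in 13.8%. Among those that fell the shares were 29.3% and 15.5%. Windows are shown for SPC25 (chr2:168890648-168890680, minus), CDK1 (chr10:60778146-60778199, plus), POLE2 (chr14:49688264-49688319, minus) and PCNA (chr20:5126650-5126705, minus). The SPC25 and CDK1 windows hold the first motif and the POLE2 and PCNA windows the E2F motif.
SPC25: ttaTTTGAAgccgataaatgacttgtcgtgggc
CDK1: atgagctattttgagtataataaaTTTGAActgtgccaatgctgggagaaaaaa
POLE2: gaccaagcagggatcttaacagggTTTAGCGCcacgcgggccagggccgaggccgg
PCNA: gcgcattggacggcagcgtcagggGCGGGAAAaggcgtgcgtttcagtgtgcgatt

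Histone genes rose in 3 of 8 tested members. H2AC6 read 7.61 on the control array, 9.08 with miR-null and 9.67 with miR-1 and rose by 1.77 ± 0.25, and H2BC21 and H2BC5 rose by 1.66 ± 0.26 and 1.37 ± 0.18. Leaving out KHOS miR-null gave 2 rises and leaving out KHOS miR-1 gave 0. Histone probe sets can share signal among copies, and so can those of CXCL8, CXCL2, IFI16, SP110, SKP2, CDH11, CLMN and SHISA3, whose probes may match related genes.

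The largest falls were in surface receptors, matrix and enzymes. EPHB1, an ephrin receptor, read 8.09 on the control array, 6.53 with miR-null and 6.49 with miR-1, a 2.98-fold fall (limma adjusted p = 0.00971). MEST, an imprinted hydrolase-like gene, read 9.77, 8.07 and 8.53 and was 2.77-fold lower. COL5A2, a fibrillar collagen chain, read 10.12, 8.66 and 8.70 and was 2.71-fold lower. The miR-null and miR-1 values of these genes lay within 0.46 of each other, against falls over 1.4. The sensory channel TRPA1 fell by 1.41 ± 0.17, calmin (CLMN) by 1.32 ± 0.19, and the cytosolic aconitase and iron regulator ACO1 by 1.30 ± 0.22. IGFBP4, which binds insulin-like growth factors, fell by 1.24, the Wnt and FGF antagonist SHISA3 by 1.22, and the Notch modifier LFNG by 1.21. AFAP1L2, the kinase PAK6, the mucin-type glycosyltransferase GALNT10, SHROOM2 and ABTB3 fell by 1.18, 1.13, 1.13, 1.11 and 1.11. None of these falls passed with either KHOS vector array left out.

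Of 21 collagen and matrix genes COL5A2 and the crosslinking enzyme LOXL2 (-0.76 ± 0.17) fell and tenascin C (TNC, 1.13 ± 0.20) rose, and COL1A1 had 10.93, 10.14 and 10.07. COL1A1 probe sets disagreed, since 2 of the 4 above the level filter lay below control on both arrays. The list's median was -0.17, and the TNC call was lost with either KHOS vector array left out, after quantile normalization and when centred on the spike-ins. Of 12 metalloproteinases and inhibitors, the collagenase MMP13 read 5.79, 7.92 and 7.29 and rose 3.51-fold, and MMP10 rose 2.70-fold from a low 4.39. MMP1 read 10.61, 10.53 and 10.26 and did not pass. Leaving out KHOS miR-null gave 0 rises in this list, leaving out KHOS miR-1 gave 1, and its median of 0.06 was -0.21 when centred on the spike-ins. The myosin kinase MYLK fell by 0.99 ± 0.21 among 26 actin cytoskeleton genes, the osteoblast cadherin CDH11 by 0.97 ± 0.16 among 7 osteoblast genes tested of 14, and the growth factor receptor PDGFRA by 1.07 ± 0.17 among 16 receptors. The osteoblast list's median was 0.48 with miR-null and 0.32 with miR-1. Over both arrays it was 0.42, or 0.14 when centred on the spike-ins. With no level filter the median of the 14 measured genes was 0.02. RUNX2, the master factor of bone, read 8.98, 9.85 and 9.83 and did not pass (limma adjusted p = 0.0711). Its probe sets disagreed, since 2 of 6, and 1 of the 2 above the level filter, lay above control on both arrays. In limma 0 genes passed among 15 integrins and laminins, 14 sterol synthesis genes, 21 glycolysis and hypoxia genes, 24 respiratory chain genes, 15 ribosomal protein genes and 12 genes of microRNA processing. At an unadjusted p under 0.05 these lists had 0, 1, 5, 0, 0 and 2 genes higher and 1, 0, 2, 2, 0 and 0 lower, where 12% and 6.28% of all genes were. Respiratory chain genes were below control on both arrays in 23 of 24 cases, but with a median of only -0.21.

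Besides the listed groups, several single genes stood among the largest rises. DHRS2, a mitochondrial reductase, read 4.36 on the control array, 6.80 with miR-null and 7.92 with miR-1, from a control value below the level filter. RTP4, an interferon-induced receptor chaperone, read 5.66, 8.94 and 8.11, and the endoderm factor GATA6 read 5.62, 8.11 and 8.83. Their rises were 3.0 ± 0.37, 2.87 ± 0.30 and 2.86 ± 0.28. PTGS2, the inducible cyclooxygenase of prostaglandin synthesis, read 7.39, 10.26 and 10.04 and rose 6.75-fold (limma adjusted p = 0.0014). The histone demethylase KDM7A, the synaptic gene ARC and the chromatin factor ARID5B rose by 2.71 ± 0.17, 2.69 ± 0.28 and 2.63 ± 0.27.

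The vector arrays differed from each other in ways that have no replicate, since each is 1 array. The miR-1 array was at least 2-fold above the miR-null array for 21 genes tested and at least 2-fold below it for 5. HSPA6, a strictly inducible HSP70, read 8.34 on the control array, 10.15 with miR-null and 12.71 with miR-1, the widest gap at 2.56. RRAD, a Ras-related GTPase, read 4.51, 5.36 and 7.72, and the HSP40 co-chaperone DNAJB1 read 10.23, 10.29 and 11.88. FOS, KLF5, RASD1, DNAJA4 and H4C8 followed with gaps of 1.93, 1.57, 1.51, 1.38 and 1.35. DNAJA4 and KLF5 probe sets disagreed on whether both arrays lay on 1 side of control. Of these, FOS passed against control and HSPA6, with an SE of 0.78, did not (limma adjusted p = 0.071).

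Heat shock chaperones, which refold damaged proteins, were higher with miR-1 than with miR-null in 18 of 19 tested genes, by a median of 0.31. Their median against control was -0.04 with miR-null and 0.27 with miR-1, and of them HSPB8 rose (0.95 ± 0.19), with 1 of its 2 probe sets on the same side on both arrays. With KHOS miR-null left out 2 of them passed. The heat shock element was searched as GAA, TTC and GAA with any 2 bases between neighbours on both strands. It was in 6 of 17 chaperone promoters (35.3%), against 0.5% of tested genes. Chaperone genes are known for this element, so the share gives no independent support. Among all genes that rose the share was 0.5%, and among those that fell 0.0%. The HSPA6 window (chr1:161524442-161524502, plus) is shown for its match.
HSPA6: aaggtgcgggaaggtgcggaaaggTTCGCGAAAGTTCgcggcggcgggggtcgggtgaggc

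**Figure D4:**
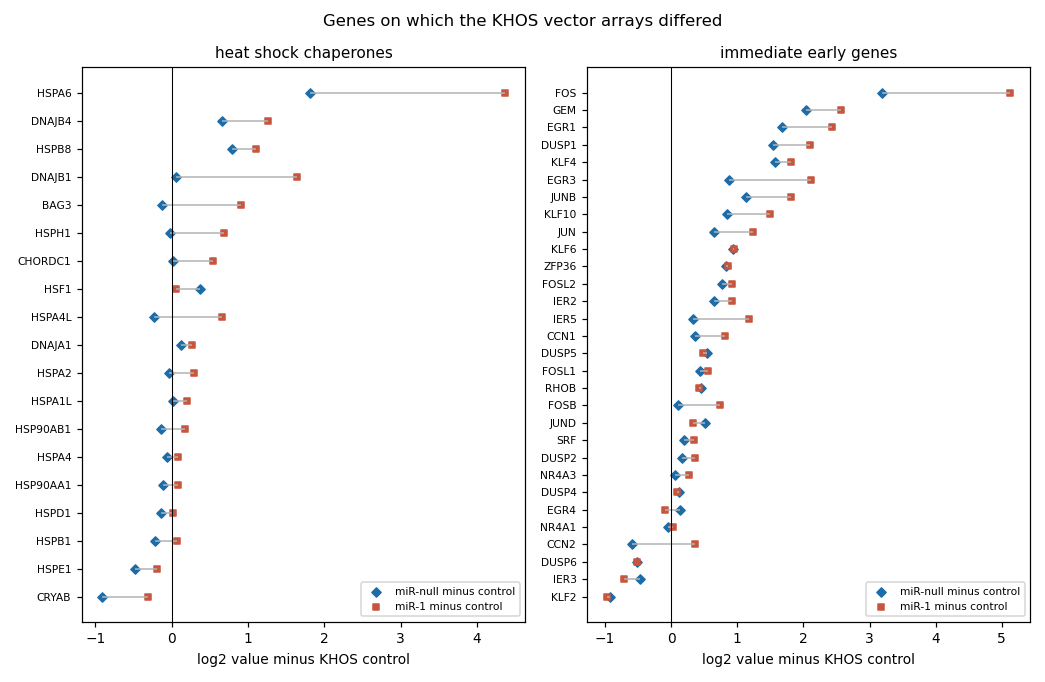
Differences from the KHOS control array, in log2 units, for heat shock chaperones and immediate early genes, with blue diamonds for miR-null and red squares for miR-1 joined by a grey line. HSPA6 (1.81 and 4.37) and FOS (3.20 and 5.12) have the widest gaps of their panels.

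Interferon genes showed the opposite order. All 44 tested effectors were higher with miR-null than with miR-1, by a median of 0.54, while 60.0% of all genes tested were. MX2, an interferon-induced GTPase, read 8.21 on the control array, 11.22 with miR-null and 10.20 with miR-1, and OAS1, which makes the activator of RNase L, read 8.50, 10.63 and 9.71. Both still rose against control, by 2.50 ± 0.39 and 1.67 ± 0.32. PSMB8-AS1 and BATF2, an interferon-induced AP-1 factor, were lower with miR-1 by -1.48 and -1.12, and EVA1B, TIE1, SPRY4-IT1 and SNORA72 by -1.12, -1.04, -0.93 and -0.92. Of 38 tested genes known as miR-1 targets, 1 rose with both vectors, the neurotrophin BDNF (1.08 ± 0.17), and 0 fell, beside 3.44% and 0.571% of all genes. The BDNF call was lost with either KHOS vector array left out, after quantile normalization and when centred on the spike-ins. Their median was -0.01 with miR-null and 0.00 with miR-1, and 6 were higher and 3 lower at an unadjusted p under 0.05, near the 12% and 6.28% of all genes.

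KHOS and U-2OS were then compared in the size of the change from control to vector, with a test of the difference itself in the same fit. It was more positive in KHOS for 259 genes (2%) and more negative for 37 genes (0.286%). Of the 259, 116 had also risen in KHOS, and for 232 the U-2OS vector arrays averaged below their control. The U-2OS change is part of the tested difference, so picking genes by that difference favours low U-2OS values. The median U-2OS change of all genes was -0.10. Leaving out 1 array gave 4 and 3 for KHOS miR-null, 5 and 3 for KHOS miR-1, 1308 and 288 for U-2OS miR-null, and 407 and 87 for U-2OS miR-1. After quantile normalization they were 11 and 5. Spike-ins read 10.81 on the U-2OS control array, 11.33 on U-2OS miR-null and 11.65 on U-2OS miR-1, and their part in the line differences was not tested.

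**Figure D5:**
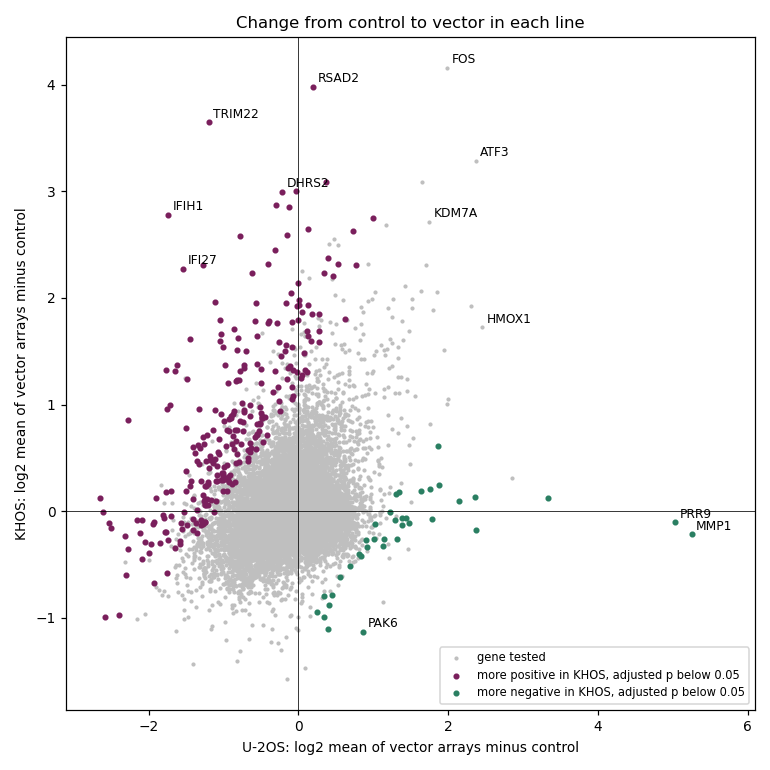
Change from control to the mean of both vector arrays, in log2 units, in U-2OS (x axis) and KHOS (y axis) for 12958 genes. Purple points passed the test of the line difference with a more positive change in KHOS (259 genes) and green points with a more negative one (37 genes). TRIM22 and IFIH1 lie at the upper left, and MMP1 and PRR9 at the far right near a KHOS change of 0.

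Interferon effectors held 24 of these more positive differences among 44 tested genes. Their U-2OS median was -0.51, against -0.10 for all genes, and both U-2OS vector arrays lay below control for 32 and above it for 7. TRIM22 differed by 4.85 ± 0.64 between the lines, with 5.37 on the U-2OS control array and 4.72 and 3.62 on its miR-null and miR-1 arrays. IFIH1 differed by 4.52 ± 0.31, with U-2OS values of 5.87, 4.20 and 4.06. IFI27 and RSAD2 differed by 3.81 and 3.79, and RSAD2 values in U-2OS stayed between 4.79 and 5.05. DDX60L, GBP1, DHRS2 and RTP4 differed by 3.58, 3.36, 3.21 and 3.17, and for DHRS2 the U-2OS arrays all read above 13.6. IFNB1 differed by 1.99 (limma adjusted p = 0.0365), with U-2OS values of 4.01, 4.49 and 4.30.

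For all 37 genes with a more negative difference the U-2OS vector arrays averaged above their control, and 7 of them had fallen in KHOS. The U-2OS change is part of how these genes were picked too. The collagenase MMP1 differed by -5.47 ± 0.25, with U-2OS values of 5.77, 11.04 and 11.00 beside the KHOS values given above. PRR9, a proline-rich epidermal gene, stayed low in KHOS at 4.17, 4.11 and 4.02, while the U-2OS arrays had 5.21, 10.21 and 10.27. LINC01516, the cytokine IL1A, LINC00520, the bone matrix protein SPP1 and the survival gene BCL2A1 differed by -3.21, -2.56, -2.22, -2.04 and -1.86. In KHOS LINC01516 read 3.58, 3.83 and 3.58, and IL1A read 4.59, 4.48 and 4.33. Like PRR9, these genes lay below the level filter of 5.11 on all KHOS arrays and passed it only through their U-2OS values. Their differences therefore say little about a response in KHOS. PAK6 fell in KHOS and read 5.38, 6.09 and 6.39 in U-2OS, a difference of -2.0 ± 0.27. Metallothioneins MT1F and MT1G also passed on this side, at -1.45 and -1.15.

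Of 31 integrated stress response genes 0 passed for a line difference in limma, with 9 more positive and 1 more negative at an unadjusted p under 0.05, where 17.1% and 5.21% of all genes were. Their U-2OS median was 0.33 beside 0.83 in KHOS. ATF3 differed by 0.92 ± 0.43 (limma adjusted p = 0.248), with 8.90, 11.10 and 11.45 in U-2OS. All 39 G2/M genes were below control on both U-2OS vector arrays as well, with a median of -0.75, and 0 of them passed for a line difference in limma, with 2 more positive and 1 more negative at an unadjusted p under 0.05. Of the 446 genes that rose in KHOS 299 had a positive change in U-2OS and 81 passed there, and of the 74 that fell 61 had a negative change and 35 passed. In that same fit 3.23% of genes rose and 11.7% fell with a vector in U-2OS. The median U-2OS change was 0.18 for the 446 genes and -0.59 for the 74, against -0.10 for all genes and -0.75 for the G2/M list. The share of all genes with each sign in U-2OS was not counted. A missed threshold does not show that the lines responded alike. The typical 95% interval of a KHOS change reached 0.41 to either side. That of a line difference was wider, with an SE for ATF3 of 0.43 against 0.30 for its KHOS change.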

How the data were processed

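RMA as run in Qlucore turned the scans into log2 values, per the deposited design text. RMA is likewise the tool given in the notes on processing. The deposited log2 values (2.83 to 14.90, 0 missing) were used unchanged. RMA shrinks differences near its floor, and pooling hides the spread between flasks. The number of arrays limits the precision.

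Of 54675 probe sets, 62 were controls, 41091 had 1 gene symbol in the annotation table, 1801 several and 11721 none. Of those with 1 symbol 41037 matched RefSeq and 0 were renamed. Each of 19775 genes took its probe set with the highest mean over 6 arrays, and 12958 genes with a mean of at least 5.11, the median of all probe sets, were tested.

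A model with 4 means (control and vector in each line) was fitted with limma 3.58.1 in R 4.3.3, with 2 residual degrees of freedom and a prior of 6.35. A gene passed at a Benjamini-Hochberg adjusted p below 0.05 with both vector arrays on 1 side of control. The Mann-Whitney test of the design text cannot go below an exact two-sided p of 0.667 with 2 arrays against 1.

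The comparison and the 39 gene lists, of which 6 hold cell type markers, were chosen with earlier results of these data known. They therefore have counts and medians and no test. Named genes are the 15 largest passing rises and falls, the 8 largest line differences each way, the 8 largest gaps each way between the vector arrays, and list members. Alternatives were the level filter, the choice of probe set, scaling, the prior variance, the fold and leaving out arrays.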

Additional observations from a re-analysis of the deposited data

Results flagged for a closer look

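Results are given here because the change from control to vector differed between KHOS and U-2OS by the limma test of that difference. It was more positive in KHOS for 259 genes and more negative for 37. Among the genes with the largest rises in KHOS these were, as KHOS change minus U-2OS change on the log2 scale, TRIM22 (4.85), IFIH1 (4.52), RSAD2 (3.79), DHRS2 (3.21), RTP4 (3.17), OASL (3.03), GATA6 (2.98), IFIT2 (2.73), HERC5 (2.51), ARID5B (1.90) and PTGS2 (1.75). IFI27 (3.81), DDX60L (3.58) and GBP1 (3.36) were named for the size of this difference. On the negative side were MMP1 (-5.47), PRR9 (-5.14), LINC01516 (-3.21), IL1A (-2.56), LINC00520 (-2.22), SPP1 (-2.04) and BCL2A1 (-1.86), and, among the largest falls in KHOS, PAK6 (-2.0) and ABTB3 (-1.51). PRR9, LINC01516 and IL1A lay below the level filter on all KHOS arrays and passed it only through U-2OS. Each line has 1 control array, so a difference that lies in 1 control array cannot be told apart from one in the response. No group had 4 or more arrays, so single arrays were not tested as outliers.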

How the results depend on the processing

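No paired analysis was possible because each condition of a line has 1 array, and leaving out the KHOS control array leaves no comparison. None of the 30 genes with the largest rises and falls, nor of the 16 with the largest line differences in that difference, reversed in the settings run. A call needed both vector arrays on 1 side of control, so leaving out 1 could not reverse the 30 for the same probe set. The filters and the prior variance do not change the estimates at all. After quantile normalization 10 of the 30 and 10 of the 16 no longer passed. Of the 16 genes named for a gap between the vector arrays, DNAJA4, EVA1B and TIE1 had the 2 arrays on opposite sides of control, so their difference changes sign with 1 array left out. Under the prior variance that follows the mean all 446 rises and 74 falls still passed, among 807 and 294. The 75th percentile filter gave 173 falls, 8 genes at least 2-fold lower, 495 and 58 line differences (more positive and more negative in KHOS) and a stress response median of 0.66, which was also 0.66 with no filter. Quantile normalization gave 118 rises, 12 falls, 11 and 5 line differences and a replication median of -0.56. Of those, 118 and 12 were among the 446 and 74. Centring on spike-ins gave 161 rises, 121 and 72 genes at least 2-fold higher and lower, 869 and 11 line differences, and medians of 0.53 for antigen presentation, 0.55 for the stress response, 0.28 for immediate early genes, -0.82 for G2/M and -0.78 for replication. The prior variance that follows the mean gave 761 and 102 line differences, and the KHOS arrays alone 737 rises and 219 falls. The share of rises among calls, 85.8% in the main fit, was 76.1%, 73.3% and 77.1% with the 75th percentile filter, that prior and the KHOS arrays alone, 76.2% and 76.6% without the U-2OS miR-null or miR-1 array, and 100% without either KHOS vector array. All probe sets gave 461 and 40 at least 2-fold and a replication median of -0.46. At least 1.5-fold gave 732 and 195, and 1.2-fold, the fold of the design text, 2046 (15.8%) and 1380 (10.6%). With 1 array left out, rises ran from 99 to 760, falls from 0 to 238, positive line differences from 4 to 1308 and negative ones from 3 to 288. With a KHOS vector array left out, 295 to 382 genes were at least 2-fold higher and 24 to 36 lower, the immediate early median was 0.45 to 0.78 and the replication median -0.50 to -0.45. The metalloproteinase median (0.06) was -0.0325 with no filter, with the filter on the KHOS mean and with the median of a gene's probe sets, -0.0343 with the 75th percentile filter, -0.21 centred on spike-ins, and -0.0107 to 0.0555 with a KHOS vector array left out. The osteoblast median was -0.0494 with the 75th percentile filter. Centred on spike-ins, medians were -0.0737 for interferons and their factors, -0.11 for tRNA synthetases, -0.10 for metallothioneins, -0.0914 for p53 targets and -0.26 for ribosomal proteins. With a KHOS vector array left out they were -0.0434 to 0.0076 for microRNA machinery and -0.0087 to 0.0047 for miR-1 targets. The cause of these changes was not tested.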

Other observations

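Zinc finger genes with a ZNF number were looked at after their values were seen, because several stood among the rises. Many encode KRAB zinc finger proteins, which silence transcription. Of 320 tested, 38 rose (11.88%, against 3.44% of all genes) and 0 fell. Both vector arrays lay above control for 223 of the 320, a larger share than the 5006 of 12958 (38.6%) among all genes tested. Their median difference was 0.28 with miR-null and 0.27 with miR-1, and -0.05 in U-2OS. ZNF165 read 4.66 on the control array, 6.42 with miR-null and 7.13 with miR-1, and ZNF256 read 4.95, 6.81 and 6.95, both from control values below the level filter. The median level of the 320 genes over the arrays was 6.98, against 7.75 for all genes tested. The change was more positive in KHOS than in U-2OS for 17 of the 320, and for 2% of all genes.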
